A study of Homo sapiens with 26 samples.

Results

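Agonist antibody A13 was compared with continued DAPT in MDA-MB-468 cells, an established human breast cancer line of the basal, triple-negative type. The comparison takes the 3 arrays labelled A13 and the 3 arrays labelled DAPT of the agonism experiment, which are 6 of the 26 arrays in the study. The groups were chosen by treatment label, and no expression value was used to choose them. A13 is an antibody to NOTCH3 that was used to switch the receptor on, and DAPT is an inhibitor of gamma-secretase, the protease that Notch receptors need in order to signal. The comparison therefore spans the range between plates in which Notch signalling was held off and plates in which NOTCH3 was stimulated.

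Both groups first received 5 µM DAPT for 16 h and were then washed out to plain medium for 2 h. The A13 plates next received 20 µg/ml of the antibody, and the DAPT plates received 5 µM DAPT again, with a further addition at 22 h. All arrays are labelled 24 h. The A13 plates thus differed from the DAPT plates in both the antibody and the loss of the inhibitor. Plates given 20 µg/ml of control IgG after the same washout separate those steps, and 3 further groups (JAG1-Fc beads, Fc beads, and 0.05% DMSO with no DAPT at any time) lie beside them, with 3 arrays each. JAG1 is a Notch ligand, and the Fc beads are its carrier control. The separate antagonism experiment, with 8 arrays and no DAPT pretreatment, grew cells for 40 h and then treated them for 24 h. Its groups were 10 µg/ml of the blocking NOTCH3 antibody A4 with 0.05% DMSO (2 arrays), 5 µM DAPT with a control IgG (3 arrays), and 10 µg/ml of that IgG with 0.05% DMSO (3 arrays). All data come from 1 cell line. Nothing in the labels ties the 3 arrays of a group to separate cultures, and only 1 DMSO plate is mentioned. The p-values then measure only the spread between the arrays at hand, and that spread may be technical.

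Notch receptors are cell-surface proteins that are cut when a ligand on a neighbouring cell pulls on them. Gamma-secretase makes the last cut and frees the intracellular domain, which enters the nucleus and, with the DNA-binding protein RBPJ and a Mastermind co-activator, switches on target genes such as those of the HES and HEY repressors. In breast tissue Notch signalling takes part in the fate choices of luminal and progenitor cells, and NOTCH3 has been studied in triple-negative breast cancer.

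Each array gave 1 intensity per probe set, a group of short probes for a transcript. Overall brightness was alike in the agonism arrays, whose median log2 intensities ran from 6.84 to 6.88. The SD of the log2 difference between pairs of arrays was 0.138 to 0.146 among A13 arrays and 0.146 to 0.179 among DAPT arrays. In the antagonism experiment control 2 stood apart, with an SD of 0.320 against control 3, compared with 0.129 between DAPT arrays 1 and 2. EPCAM, an epithelial adhesion molecule, had a mean log2 intensity of 13.71 with A13 and 13.78 with DAPT. Of the 10 measured epithelial and triple-negative line markers 6 were lower with A13 and 1 higher, with a median change of -0.28. That list includes the receptor genes ESR1, PGR and ERBB2 beside epithelial genes. Of 8 fibroblast and 6 leukocyte markers 0 passed, and of 7 endothelial markers 2 were lower. Over all genes 12.0% were higher and 16.2% lower. The leukocyte gene PTPRC, at 4.83 with A13 and 4.72 with DAPT, lay below each array's lower quartile.

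The A13 and DAPT plates differed widely. Changes are given as the difference of mean log2 intensity, A13 minus DAPT, with its standard error (SE), and a gene passed when its limma p-value, adjusted by Benjamini-Hochberg over 19775 genes, was under 0.05. By that rule 5586 genes (28.2%) passed, of which 2382 (12.0%) were higher and 3204 (16.2%) lower with A13. Most changes were small: 105 genes (0.531%) were at least 2-fold higher and 188 (0.951%) at least 2-fold lower, and 15 and 26 of these reached 4-fold. The 3 A13 arrays and the 3 DAPT arrays did not overlap in 2332 of the higher and 3165 of the lower genes, and did not overlap in 40% of all genes tested. The median change over all genes was 0.01. Leaving out 1 array at a time gave 4727 to 5106 passing genes. When the 9887 genes above the median level were tested alone, 5377 (54.4%) passed, 2368 higher and 3009 lower. The shares over all genes that stand beside the lists below are not matched for level.

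**Figure D1:**
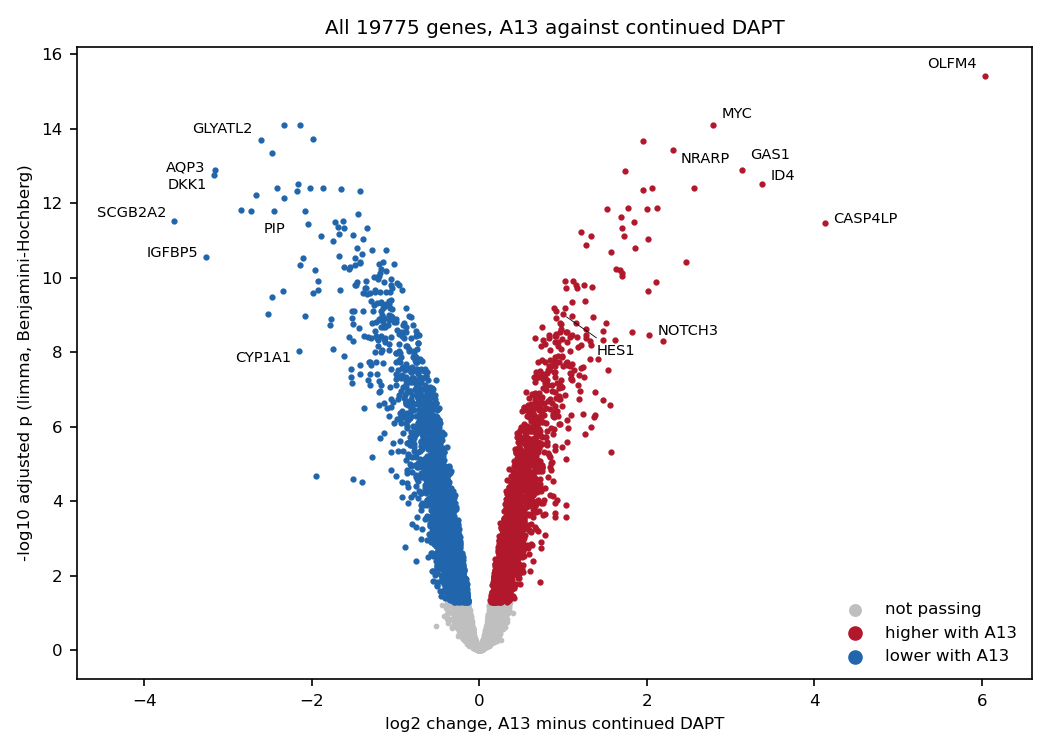
Change of each of the 19775 genes (horizontal axis, log2, A13 minus continued DAPT) against -log10 of its adjusted limma p (vertical axis), with 3 arrays a group. Red points are the 2382 genes higher with A13, blue points the 3204 lower, and grey points did not pass; OLFM4 lies far to the right at 6.04 and SCGB2A2 furthest to the left of the named genes at -3.64.

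Canonical Notch targets were higher with A13. Of 16 such genes measured, 10 rose and 0 fell, against 12.0% of all genes higher and 16.2% lower, and their median change was 0.77. The list takes in the receptors NOTCH3 and NOTCH1, the cell-cycle gene CCND1 and MYC, a growth-promoting transcription factor. This list and those below were chosen with earlier results of these data known, so their counts are a description. Of the genes named, OLFM4, a secreted glycoprotein outside that list, and MYC had the smallest adjusted p-values.

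NRARP, a small protein that Notch induces and that damps Notch signalling in return, had intensities of 1237, 1200 and 1158 in the A13 arrays and 219, 259 and 251 in the DAPT arrays. All A13 arrays were far above all DAPT arrays, a 4.95-fold rise (2.31 ± 0.07, adjusted p = 3.79e-14). NOTCH3, the receptor that A13 binds, had 4762, 6477 and 5913 with A13, against 1188, 1538 and 1462 with DAPT. Its transcript was 4.09-fold higher (2.03 ± 0.14, adjusted p = 3.42e-09), and A13 array 1 was the lowest of its group yet stood above every DAPT array.

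The HES and HEY genes encode repressors that carry the classical Notch response, and 5 of the 9 measured rose, by less than NRARP and NOTCH3. HES1 had 2176, 2039 and 2137 with A13 and 1045, 1029 and 1094 with DAPT, with no overlap between the groups. That was a 2.01-fold rise (1.0 ± 0.06, adjusted p = 9.64e-10). HES1 has 3 probe sets, of which 2 rose and the other changed by -0.16 (adjusted p = 0.216), so that its value depends on the probe set. HES4 had 3194, 3647 and 3757 with A13 and 1847, 2021 and 2036 with DAPT, a rise of 0.84 ± 0.08. HEY1, at 335, 322 and 334 with A13 and 178, 188 and 188 with DAPT, also rose by 0.84. HEY2 had low intensities throughout, 96.2, 86.8 and 101 with A13 and 54.2, 59.6 and 60.1 with DAPT, and rose by 0.71. HES2 rose by 0.64. In each of these genes the arrays of the groups did not overlap, as in 2332 of the 2382 genes higher with A13 and in 40% of all genes.

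CCND1, which encodes the cyclin D1 of the G1 phase, had 1281, 1224 and 1180 with A13 against 393, 374 and 427 with DAPT, a rise of 1.63 ± 0.08. NOTCH1 had 392, 403 and 431 with A13 and 203, 196 and 233 with DAPT, a rise of 0.96 ± 0.09. The other members did not pass. These were the ligand gene DLL4 (0.17), HEYL (0.11), HES7 (0.09), HES6 (0.02), HES5 (0.00) and the ubiquitin ligase gene DTX1 (-0.04).

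**Figure D2:**
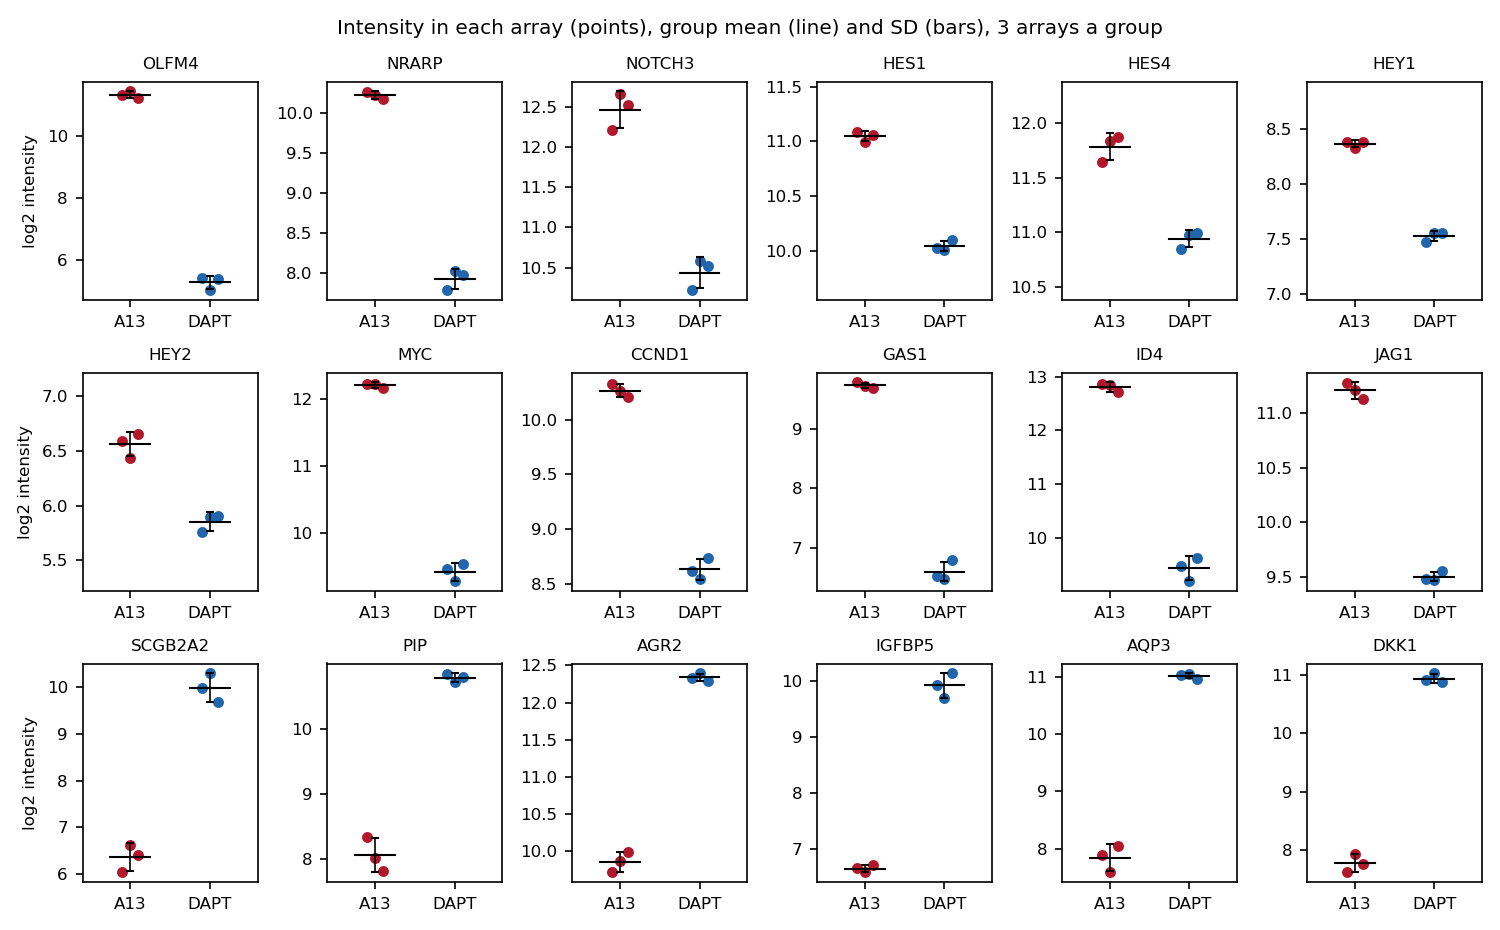
Log2 intensity of 18 named genes in each A13 array (red, left) and each continued DAPT array (blue, right), with the group mean as a line and the SD as bars, 3 arrays a group; each panel has its own vertical axis. The groups do not overlap in any panel, which was required of the largest rises and falls and held in 40% of all genes. The gap is widest for OLFM4, with 2560, 2756 and 2381 against 42.7, 32.5 and 42.2 on the linear scale.

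Since RBPJ carries the Notch signal to DNA, promoters of these genes were searched for the letters GTGGGAA, the core of its known binding motif, on both strands. The promoters are from RefSeq on GRCh38.p14, and the search covered 250 bases before to 50 bases after each gene's start. Of 12 canonical targets with a promoter in that set, 5 held the motif (41.7%): HES1, HES4, HES5, HEY2 and HEYL. It was present in 6.25% of all 35116 promoters, in 6.10% of the 82 matched genes at least 2-fold higher with A13, and in 6.94% of the 144 matched genes at least 2-fold lower. HES5 and HEYL held it and did not pass, so the letters alone did not mark the genes that rose. The 250 bases before the start are shown for the 3 targets that held it and rose, and for OLFM4, the gene with the largest rise. Capitals mark the motif, which reads TTCCCAC where it lies on the other strand. The regions are chr3:194135898-194136147 (plus strand) for HES1, chr1:1000098-1000347 (minus strand) for HES4, chr6:125749382-125749631 (plus strand) for HEY2 and chr13:53028563-53028812 (plus strand) for OLFM4.
HES1: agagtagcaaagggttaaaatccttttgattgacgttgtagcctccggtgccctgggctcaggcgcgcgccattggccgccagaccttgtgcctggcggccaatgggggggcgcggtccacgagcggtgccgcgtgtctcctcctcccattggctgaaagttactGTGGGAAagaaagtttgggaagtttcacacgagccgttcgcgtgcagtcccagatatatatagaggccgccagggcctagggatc
HES4: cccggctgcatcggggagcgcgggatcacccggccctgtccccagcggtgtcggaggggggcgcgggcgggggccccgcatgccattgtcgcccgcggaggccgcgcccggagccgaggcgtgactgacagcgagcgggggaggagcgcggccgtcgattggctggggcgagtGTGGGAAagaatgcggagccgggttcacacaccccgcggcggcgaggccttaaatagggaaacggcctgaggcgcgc
HEY2: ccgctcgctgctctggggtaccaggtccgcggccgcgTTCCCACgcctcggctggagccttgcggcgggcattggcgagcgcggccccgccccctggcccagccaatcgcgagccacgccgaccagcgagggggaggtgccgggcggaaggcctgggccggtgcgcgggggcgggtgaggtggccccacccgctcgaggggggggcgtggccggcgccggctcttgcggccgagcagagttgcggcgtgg
OLFM4: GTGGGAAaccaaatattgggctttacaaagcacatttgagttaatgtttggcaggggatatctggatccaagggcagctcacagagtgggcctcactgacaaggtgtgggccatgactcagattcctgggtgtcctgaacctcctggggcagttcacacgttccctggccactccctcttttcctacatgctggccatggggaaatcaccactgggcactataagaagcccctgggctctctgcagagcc
The motif began 85 bases before the start in HES1, 77 in HES4, 213 in HEY2 and 250 in OLFM4. A match is a description of the letters in this window and not a binding site measured here.

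Among receptors, ligands and fringe enzymes 5 of 12 members rose and 1 fell, beside 12.0% higher and 16.2% lower over all genes. The ligand gene JAG1 had 2494, 2374 and 2251 with A13 and 713, 709 and 750 with DAPT, which was 3.28-fold higher (1.71 ± 0.07). The ligand genes JAG2 (0.24) and DLL3 (0.26) passed with small changes that did not hold under every setting. JAG2 lost its call without A13 array 3 (adjusted p = 0.0595) or DAPT array 2 (adjusted p = 0.067), and DLL3 was at 0.01 (adjusted p = 0.91) with the mean of probe sets. LFNG, a fringe glycosyltransferase that modifies Notch receptors, was the member that fell. It had 175, 152 and 133 with A13 against 317, 312 and 385 with DAPT (-1.14 ± 0.11). Its arrays did not overlap, as in 3165 of the 3204 genes lower with A13. NOTCH2 (0.13, adjusted p = 0.180), NOTCH4 (0.10) and DLL1 (0.17) did not pass, so a rise in receptor transcript was called for NOTCH3 and NOTCH1 and not for the other two.

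The genes of receptor processing and of the RBPJ complex moved in both directions, with 4 of 19 higher, 5 lower and a median of -0.02. Over all genes 12.0% were higher and 16.2% lower. The co-activator gene MAML2 rose by 0.55 and SPEN, a co-repressor that works with RBPJ, by 0.48. PSENEN, a subunit of gamma-secretase, changed by -0.72, the ubiquitin ligase genes DTX4 and DTX2 by -0.72 and -0.45, and APH1B, another gamma-secretase subunit, by -0.36. RBPJ itself changed by 0.03 and did not pass.

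OLFM4 showed the largest change of any gene. It marks stem-like cells of the intestine and is known there as a Notch-responsive gene. Its intensities were 2560, 2756 and 2381 with A13 and 42.7, 32.5 and 42.2 with DAPT, a 66.0-fold rise (6.04 ± 0.12, adjusted p = 3.78e-16). The DAPT values lay below the lower quartile of their arrays, so the fold is set against values near the bottom of the measured range.

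The other large rises were in genes of several kinds. ID4, an inhibitor of helix-loop-helix transcription factors, had 7489, 7326 and 6705 with A13 and 713, 583 and 792 with DAPT, a 10.4-fold rise (3.38 ± 0.12). GAS1, a membrane protein of growth arrest and hedgehog signalling, had 880, 849 and 826 with A13 against 92.1, 88.8 and 110 with DAPT and rose 8.82-fold. Of its 3 probe sets 2 rose, and the one other than _x_at and _s_at types, which can also detect related transcripts, changed by 0.02 (adjusted p = 0.907). The rise of GAS1 therefore rests on probe sets of those types. NRP1, a co-receptor for semaphorins and VEGF, had 709, 663 and 760 with A13 and 122, 112 and 128 with DAPT, a 5.88-fold rise. FAM43A had 1248, 1593 and 1428 with A13 and 284, 212 and 279 with DAPT, 5.53-fold higher.

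CASP4LP, a transcribed pseudogene in the reference gene table, had 1120, 1289 and 1159 with A13 and 87.0, 58.3 and 61.8 with DAPT, 17.5-fold higher. DAPT arrays 2 and 3 lay below their lower quartiles, so this fold too is set against values near the bottom of the range. Its other probe set changed by 0.07, and signal from a related caspase gene was not separated here, so this value is uncertain. The rest of the 15 largest rises reached 4-fold or just above. They were the transcription cofactor gene LBH (2.19), MYEOV (2.12), CTH, an enzyme of cysteine synthesis (2.11), the protease inhibitor gene SERPINA3 (2.06), the secreted hormone gene STC2 (2.01) and IL22RA2, a soluble decoy receptor for interleukin-22 (2.01). SERPINA3 had 3080, 3144 and 3117 with A13 and 810, 779 and 661 with DAPT. STC2 had 1506, 1364 and 1430 with A13 and 417, 324 and 334 with DAPT. Arrays that did not overlap were a condition for the 15 largest rises.

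MYC had 4817, 4818 and 4592 with A13 and 703, 621 and 744 with DAPT. It was 6.90-fold higher (2.79 ± 0.07, adjusted p = 7.99e-15), and the spread within each group was small against that gap. MYC pairs with MAX to bind E-box sequences and is known for driving genes of ribosome production and nucleotide synthesis. In its own network of 11 measured genes 5 were higher and 1 lower, beside 12.0% and 16.2% of all genes. Its relative MYCN rose by 0.68, although without _x_at and _s_at probe sets its change was -0.01, and the antagonist gene MXI1 rose by 0.54. MXD1, another antagonist, changed by -0.43, and its partner MAX by 0.09, which did not pass.

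All 25 measured genes of ribosome biogenesis rose, by 0.17 to 0.91, with a median of 0.52 against 0.01 over all genes. DDX21, an RNA helicase of the nucleolus, had 6825, 6703 and 6822 with A13 and 3627, 3529 and 3838 with DAPT, a rise of 0.89 ± 0.05 (adjusted p = 6.31e-10). WDR43, a factor that processes ribosomal RNA, rose by 0.91, NOC3L by 0.79, and the nucleolar proteins NOLC1 and NCL by 0.71 each. NCL changed by only 0.07 without _x_at and _s_at probe sets. These rises were thus uniform in direction and smaller than that of MYC. Genes of polyamine and nucleotide synthesis followed with 17 of 25 higher and 2 lower (median 0.31), beside 12.0% and 16.2% of all genes. SHMT2, a mitochondrial enzyme of serine and folate metabolism, rose by 0.79, PFAS of purine synthesis by 0.69, IMPDH2 of guanine nucleotide synthesis by 0.68 and CAD of pyrimidine synthesis by 0.60. ODC1, the first enzyme of polyamine synthesis, rose by 0.55, whereas SMS (-0.19) and PRPS1 (-0.17) fell.

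The E-box CACGTG, which MYC with MAX is known to bind, was searched in the same promoters. It reads the same on both strands. It was found in 11 of 20 matched ribosome biogenesis genes (55.0%), in 7.26% of all promoters, in 9.76% of the matched genes at least 2-fold higher and in 0 of the 12 matched canonical Notch targets. GTGGGAA was found in 1 of the 20 ribosome biogenesis genes (5.00%). For both motifs the gene sets count genes with a match in any of their promoters, whereas the share of all promoters counts promoters. An E-box match too describes letters and is not a binding site measured here. All 25 list members rose, so the E-box could not separate genes that rose from others, and a role of MYC was not tested. The 250 bases before the start of DDX21, chr10:68956397-68956646 on the plus strand of GRCh38.p14, are shown as an example from that list, with the E-box in capitals beginning 31 bases before the start.
DDX21: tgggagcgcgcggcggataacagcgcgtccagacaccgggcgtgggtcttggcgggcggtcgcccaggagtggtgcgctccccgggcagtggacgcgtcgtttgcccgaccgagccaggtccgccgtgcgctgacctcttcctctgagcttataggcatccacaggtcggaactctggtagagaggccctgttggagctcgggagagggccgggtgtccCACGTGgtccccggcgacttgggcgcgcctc

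Cell-cycle genes were shifted upward by smaller amounts, and their counts stand beside 12.0% higher and 16.2% lower over all genes. Of 30 genes of mitosis 20 rose and 0 fell, with a median of 0.22. They included CENPE, a kinetochore motor (0.50), the topoisomerase gene TOP2A (0.48) and ASPM, a spindle protein (0.48), which did not pass without _x_at and _s_at probe sets (0.34, adjusted p = 0.15). The kinetochore gene CENPF rose by 0.61, with -0.19 when _x_at and _s_at probe sets were left out. Of 30 genes of G1/S and DNA replication 12 rose and 1 fell. All 30 lay above the median level, and when such genes were tested alone 16 rose and 2 fell, where 54.4% of all such genes passed. E2F2, a transcription factor of S-phase entry, rose by 1.05, the replication factors MCM10 and CDC45 by 0.49 and 0.47, and the cyclin gene CCNE2 fell by 0.30. Among 13 G1 cyclins, kinases and inhibitors, 6 rose and 2 fell. CDK6, a partner of cyclin D1, had 370, 400 and 376 with A13 and 176, 149 and 187 with DAPT, a rise of 1.17. CDK4 rose by 0.42, and the inhibitor genes CDKN2B and CDKN1A moved in opposite directions, by 0.52 and -0.64.

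Secretory products of luminal breast cells were among the large falls, and SCGB2A2, PIP and AGR2 were 3 of the 15 largest. Of 30 luminal and secretory genes 19 fell and 2 rose, with a median of -0.51, against 16.2% lower and 12.0% higher over all genes. SCGB2A2, mammaglobin, had 65.4, 98.9 and 84.8 with A13 and 1018, 1259 and 825 with DAPT, and was 12.4-fold lower (-3.64 ± 0.15). A13 array 1 lay below its lower quartile, so this fold too is set against values near the bottom of the range. PIP, the prolactin-induced secreted protein, had 322, 259 and 225 with A13 against 1835, 1674 and 1769 with DAPT, 6.61-fold lower. AGR2, a protein disulfide isomerase of secretory cells, had 841, 939 and 1015 with A13 against 5158, 5369 and 4997 with DAPT, 5.57-fold lower. Arrays that did not overlap were a condition for the 15 largest falls, so the lack of overlap in these 3 genes is not a separate result. The mucin-like gene MUCL1, with 835, 827 and 997 with A13 and 3978, 4101 and 3964 with DAPT, fell by 2.18. The adhesion molecule CEACAM6 fell by 1.47, LCN2, which binds iron carriers, by 1.43, and MUC1 by 1.15. The transcription factors FOXA1 and SPDEF, which act in luminal and secretory cells, fell by 1.23 and 1.16. KIT, a receptor tyrosine kinase of luminal progenitors, went the other way, with 598, 522 and 618 with A13 against 177, 174 and 178 with DAPT (1.71).

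Other falls of similar size came from several functions. IGFBP5, which binds insulin-like growth factors, had 102, 96.2 and 105 with A13 and 968, 833 and 1121 with DAPT, 9.57-fold lower (-3.26 ± 0.16). AQP3, a water and glycerol channel, had 236, 192 and 265 with A13 against 2097, 2107 and 1997 with DAPT, 9.01-fold lower (-3.17 ± 0.10). DKK1, a secreted inhibitor of Wnt signalling, had 199, 247 and 217 with A13 and 1914, 2075 and 1873 with DAPT, 8.87-fold lower (-3.15 ± 0.10). As for all of the 15 largest falls, non-overlapping arrays were a condition of their choice. GLYATL2, an acyltransferase that uses glycine, had 1186, 1159 and 1359 with A13 and 7408, 7329 and 7770 with DAPT. RGS2, which shortens G-protein signalling, had 299, 286 and 354 with A13 and 1769, 1695 and 1637 with DAPT. They were 6.09-fold and 5.45-fold lower. The 15 largest falls also held the scaffold gene PDZK1 (-2.85), the P450 pseudogene CYP4Z2P (-2.67), the pantetheinase gene VNN1 (-2.52), LRRC31 (-2.47), the protease inhibitor gene TFPI2 (-2.41), the membrane protease gene TMPRSS11E (-2.34) and SYTL2, a factor of vesicle transport (-2.33). The A13 arrays of PDZK1, CYP4Z2P, VNN1, LRRC31 and TMPRSS11E lay below their lower quartiles, near the bottom of the range. CYP4Z2P is nearly identical in sequence to CYP4Z1, so their signals may be shared.

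Basal genes did not move as a block. Of 14 measured, 5 rose and 6 fell, beside 12.0% higher and 16.2% lower over all genes. The 14 include PC, a metabolic enzyme gene that was matched to KRT17 through a shared alternative name. KRT17 itself was not measured, so these counts are not purely of basal genes. The basal keratin genes KRT5 and KRT14 rose by 1.73 and 1.77. KRT5 had 13325, 14348 and 14249 with A13 against 3747, 4378 and 4570 with DAPT, and KRT14 had 960, 927 and 1086 with A13 against 309, 277 and 288 with DAPT. KRT16 (0.66) and the membrane peptidase gene MME (0.52) rose as well. The keratin gene KRT15 fell by 1.02 and the integrin gene ITGB4 by 1.25, although ITGB4 changed by -0.06 when _x_at and _s_at probe sets were left out. Of 15 mesenchymal genes 2 rose and 2 fell, so that 26.7% passed, near the 28.2% of all genes. Of the 5 above the median level 4 passed, beside 54.4% of all such genes. Vimentin (VIM), an intermediate filament protein, had 1900, 1683 and 1712 with A13 and 690, 630 and 479 with DAPT (1.57 ± 0.19), and FOXQ1, a forkhead transcription factor, had 3573, 3768 and 3646 with A13 and 1104, 1044 and 1244 with DAPT (1.70). E-cadherin (CDH1) changed by -0.36.

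Progenitor and retinoid genes showed a split within an enzyme family. ALDH1A1, a retinaldehyde dehydrogenase used as a marker of breast stem-like cells, had 1060, 1179 and 1171 with A13 and 303, 279 and 271 with DAPT, a rise of 2.0. Its relative ALDH1A3 had 1948, 2101 and 1807 with A13 and 6268, 6578 and 6892 with DAPT, and fell by 1.75. Neither overlapped between groups, as was the case in 40% of all genes. ID4 and KIT belong to the same list, in which 7 of 13 rose and 3 fell, beside 12.0% and 16.2% of all genes. SOX9, a progenitor transcription factor, rose by 0.73 and ID3 by 0.76, while ID1 fell by 0.67.

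Genes of the amino acid response driven by the transcription factor ATF4 were higher, with 18 of 21 up, 1 down and a median of 0.96. CTH had 1156, 1240 and 1147 with A13 and 296, 263 and 264 with DAPT. The cystine transporter gene SLC7A11 had 597, 695 and 568 with A13 and 241, 225 and 227 with DAPT, a rise of 1.42. CHAC1, which degrades glutathione, rose by 1.32, ALDH1L2, a mitochondrial folate enzyme, by 1.82 and the stress sensor SESN2 by 1.19. The ATF4 transcript changed by 0.08 (adjusted p = 0.272), and NUPR1 fell by 0.32. Genes of protein folding and stress in the endoplasmic reticulum did not follow: 2 of 19 were higher and 7 lower, with DNAJB9 at -0.60 and the sensor ERN1 at 0.67. Counts of both lists stand beside 12.0% higher and 16.2% lower over all genes.

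The aryl hydrocarbon receptor genes and the NRF2 genes included clear falls, and their counts stand beside 12.0% higher and 16.2% lower over all genes. CYP1A1, the P450 enzyme induced by that receptor, had 104, 143 and 136 with A13 and 497, 531 and 669 with DAPT (-2.15 ± 0.16). ALDH3A1 fell by 1.56, whereas the receptor gene AHR rose by 0.87. In that list of 11 genes 3 rose and 5 fell. Of 18 NRF2 targets, the genes of the antioxidant response, 10 fell and 1 rose. NQO1 (-0.79) and HMOX1 (-0.58) fell, as did the reductase AKR1B10 (-1.17), and SLC7A11 was the member that rose.

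Immediate early and MAP kinase feedback genes were mixed by family: 15 of 27 rose and 5 fell, beside 12.0% higher and 16.2% lower over all genes. Of the 24 above the median level 15 rose and 6 fell, where 54.4% of all such genes passed. IER5, an early response gene, had 10004, 10075 and 9307 with A13 and 2889, 2861 and 3073 with DAPT, a rise of 1.74. ATF3 rose by 1.62, SPRY2, a feedback inhibitor of receptor kinases, by 1.21 and IER3 by 1.02. The MAP kinase phosphatase genes DUSP2 (-1.27), DUSP6 (-1.2) and DUSP4 (-0.65) fell. DUSP6 had 324, 297 and 341 with A13 and 750, 686 and 768 with DAPT. Among EGFR family genes 2 of 12 rose and 3 fell, beside 12.0% higher and 16.2% lower over all genes, with EGFR at 0.46, the ligand gene HBEGF at 0.52 and the ligand gene BTC at -0.97.

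Of 28 interferon-stimulated genes 10 fell and 4 rose, beside 16.2% lower and 12.0% higher over all genes. Of the 15 above the median level 8 fell and 3 rose, where 54.4% of all such genes passed. OAS1, a sensor of double-stranded RNA, had 240, 236 and 252 with A13 and 643, 665 and 685 with DAPT (-1.45). ISG15 fell by 0.76, and IRF1, an interferon regulatory factor, rose by 0.64. Of 14 genes of MHC class I antigen processing 7 fell and 1 rose, among them the immunoproteasome subunits PSMB10 (-0.81) and PSMB9 (-0.60). NF-kB targets and cytokines counted 6 higher and 2 lower of 23, with the cytokine LIF at 0.73 and the chemokine CXCL2 at 1.10. The last was -0.13 without _x_at and _s_at probe sets. Counts of the MHC and NF-kB lists too stand beside 12.0% higher and 16.2% lower over all genes.

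The counts of the lists that follow stand beside 12.0% higher and 16.2% lower over all genes. Of 15 Wnt regulators 4 rose and 4 fell. WNT5A, a ligand of non-canonical Wnt signalling, fell by 1.53 beside DKK1, and the feedback genes AXIN2 and ZNRF3 rose by 0.91 and 0.62. Of 16 genes of TGF-beta and BMP signalling 4 rose and 6 fell. The ligand BMP2 had 102, 101 and 122 with A13 and 350, 305 and 340 with DAPT (-1.62). YAP targets and caveolae counted 10 higher and 3 lower of 18, with AMOTL2 at 0.97, CCN1 at 0.77, CCN2 at 0.70 and CAVIN1, a coat protein of caveolae, at -0.97. Of 17 neuropilins, semaphorins and plexins 3 rose and 4 fell. Beside NRP1, the semaphorin receptor PLXND1 rose by 0.60, and SEMA3C, a secreted semaphorin, fell by 0.50. Of 13 genes of the insulin-like growth factor list, IRS2 (1.13) rose and IGFBP5 fell, and the others did not pass.

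Acute-phase and serpin genes counted 2 higher and 6 lower of 20. SERPINA3 rose while the fibrinogen chains FGG (-2.17) and FGB (-1.53) fell, and FGG had 190, 152 and 189 with A13 and 818, 776 and 786 with DAPT. S100 proteins and matrix proteases counted 4 higher and 11 lower of 24. S100A3, a calcium-binding protein, had 1034, 1154 and 1094 with A13 and 320, 298 and 289 with DAPT (1.86), and MMP7, matrilysin, rose by 0.95. TIMP1, an inhibitor of metalloproteinases, fell by 1.11. Hypoxia and glycolysis genes counted 5 higher and 10 lower of 25, with VEGFA at 0.66 and NDRG1 at -0.78. Lysosomal and autophagy genes counted 2 higher and 10 lower of 20. The cathepsins CTSS (-1.06) and CTSH (-0.86) fell, and GPNMB, a membrane glycoprotein, rose by 0.82. The p53 targets and apoptosis genes counted 4 higher and 7 lower of 18, with TP53INP1 at -1.07. Cholesterol and fatty acid synthesis counted 2 higher and 3 lower of 18, with HMGCS1 at 0.60. The passing share of the cholesterol list, 27.8%, was near that of all genes. Of its 17 members above the median level 7 passed, beside 54.4% of all such genes. Among the line markers, keratins 8 and 7 (KRT8, -0.83, and KRT7, -0.85) fell, KRT7 with -0.07 when _x_at and _s_at probe sets were left out. ESR1 was also called lower, and lost its call with the mean of probe sets (-0.06, adjusted p = 0.491). Among the endothelial markers CDH5 (-0.58) and ENG (-0.30) fell, and ENG lost its call with the mean of probe sets (-0.13, adjusted p = 0.189) and without DAPT array 3 (adjusted p = 0.0594).

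**Figure D3:**
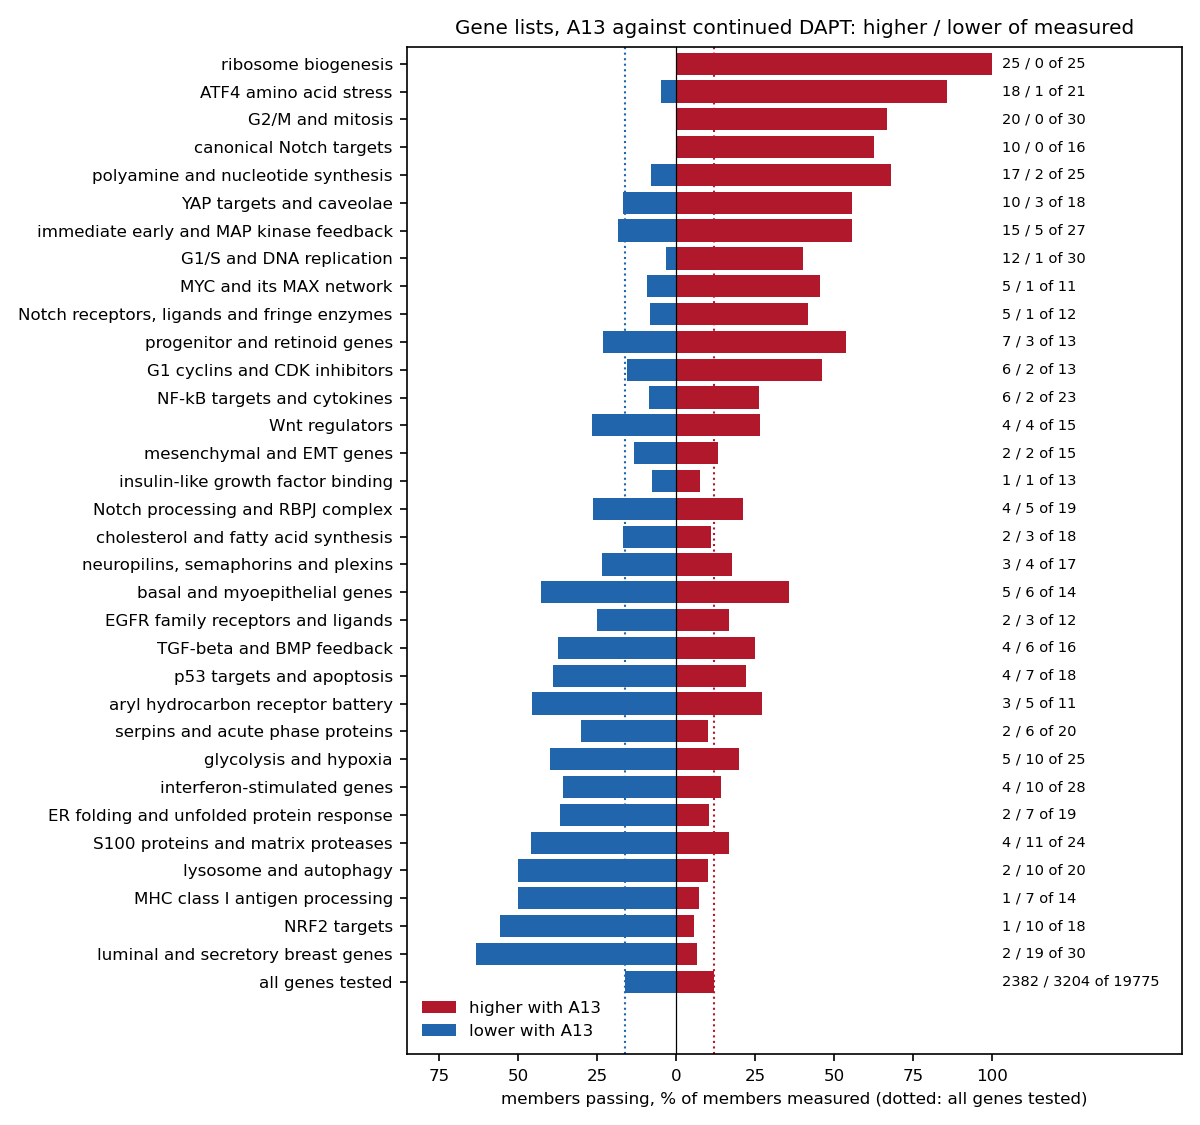
Share of measured members of each gene list that passed, higher with A13 (red, to the right) and lower (blue, to the left), in percent, with the counts at the right and all genes tested as the bottom row and dotted lines. Ribosome biogenesis stands at the top with 25 higher of 25, and the luminal list near the bottom with 19 lower of 30. The basal list counts PC in place of KRT17.

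The control IgG plates divide the comparison into an antibody step (A13 against IgG) and a washout step (IgG against continued DAPT). The DAPT plates received no antibody, so the washout step joins the loss of DAPT with the addition of control IgG, which cannot be told apart here. The steps share the IgG arrays, and each shares arrays with the whole comparison, so that their values are set side by side and no overlap is counted. In the antibody step 2908 genes (14.7%) passed, 1124 (5.68%) higher and 1784 (9.02%) lower. In the washout step 1932 (9.77%) passed, 821 (4.15%) higher and 1111 (5.62%) lower. The washout count fell to 1054 without DAPT array 1 and to 1101 without IgG array 2. The antibody count was 1862 when _x_at and _s_at probe sets were left out.

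MYC rose by 1.33 in the antibody step and by 1.45 in the washout step, and the difference of the steps did not pass (-0.12 ± 0.13, adjusted p = 0.717). HES1 rose by 0.33 in the antibody step and by 0.67 in the washout step (difference -0.34, adjusted p = 0.148). NRARP rose by 1.90 in the antibody step and by 0.41 in the washout step, and OLFM4 by 3.98 and 2.06. Their steps differed, by 1.5 ± 0.12 for NRARP (adjusted p = 1.68e-06) and 1.92 ± 0.21 for OLFM4 (adjusted p = 3.8e-05). FAM43A also changed more in the antibody step (1.96, against 0.51 in the washout step). ID4 and SERPINA3 changed more in the washout step, with 1.16 and 0.57 in the antibody step and 2.22 and 1.49 in the washout step.

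The difference of the steps passed for 352 genes (1.78%), with 100 (0.506%) above 0 and 252 (1.27%) below. Without IgG array 2 the count was 150, and without IgG array 1 it was 192. The clearest difference was in CYP4Z1, a fatty acid hydroxylase of the breast. It had 344, 355 and 356 with A13 and 1389, 1340 and 1435 with continued DAPT. It fell by 2.16 in the antibody step and rose by 0.18 in the washout step (difference -2.33 ± 0.09, adjusted p = 7.41e-11). CYP4B1, another P450, changed by -1.59 in the antibody step and 0.03 in the washout step, and MUCL1 by -1.81 and -0.37. CYP1A1 was the reverse case, with -0.01 (adjusted p = 0.977) in the antibody step and -2.13 in the washout step. AQP3 fell in both, by 1.05 in the antibody step and 2.12 in the washout step.

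Some genes moved in opposite directions in the steps and were near level over the whole range. OLFML3, a secreted olfactomedin protein, had 579, 624 and 634 with A13 and 586, 604 and 602 with DAPT, with overlapping arrays. It changed by 0.79 in the antibody step and -0.75 in the washout step, and the IgG arrays averaged 354.1. CD14, a pattern receptor, had 800, 743 and 840 with A13 and 814, 760 and 754 with DAPT, and changed by -0.72 and 0.75. CYP1B1 changed by 0.73 and -0.72, and FN1, fibronectin, by -0.52 and 0.60. NEURL3 changed by -0.46 and 0.95, and was 0.49 higher with A13 than with DAPT.

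By list, the canonical Notch targets counted 10 higher and 0 lower of 16 in the antibody step and 9 higher and 0 lower in the washout step. Ribosome biogenesis counted 19 and 6 higher of 25, with 0 lower in either. The luminal list counted 19 lower and 2 higher of 30 in the antibody step and 9 lower and 1 higher in the washout step. The ATF4 list had a median of 0.27 in the antibody step and 0.68 in the washout step, with 11 and 18 higher of 21. Over all genes 5.68% were higher and 9.02% lower in the antibody step, and 4.15% and 5.62% in the washout step. Differences of the list counts between the steps were not tested.

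Mean levels in the other groups of the experiment place the A13 and DAPT plates in a range. OLFM4 averaged 1120 on JAG1-Fc beads, 185.6 on Fc beads, 162.1 with control IgG and 170.4 with DMSO. MYC averaged 4458 on JAG1-Fc beads, 2552 on Fc beads, 1881 with IgG and 1591 with DMSO, and NRARP averaged 680.2, 338.2, 320.8 and 276.2 in the same groups. A13 exceeded DMSO by 3.91 for OLFM4, 1.58 for MYC, 2.12 for NRARP and 0.62 for HES1. Against the DMSO plates, 6108 genes (30.9%) passed with A13, 3107 (15.7%) higher and 3001 (15.2%) lower. The genes of mitosis, of which none fell against DAPT, counted 8 higher and 8 lower of 30 against DMSO. The ATF4 list counted 18 higher and 0 lower of 21 against DMSO. Its median there was 0.81, beside 0.96 against continued DAPT, so A13 exceeded plates never given DAPT by a similar amount.

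For the 105 genes at least 2-fold higher with A13, the median change from continued DAPT was 1.28 with A13, 1.31 on JAG1-Fc beads, 0.82 on Fc beads, 0.63 with IgG and 0.30 with DMSO. For the 188 genes at least 2-fold lower it was -1.29 with A13, -1.22 on JAG1-Fc beads, -0.62 on Fc beads, -0.59 with IgG and -0.53 with DMSO. All of these differences use the same DAPT arrays, and the genes were chosen from them, so the medians are a description.

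**Figure D4:**
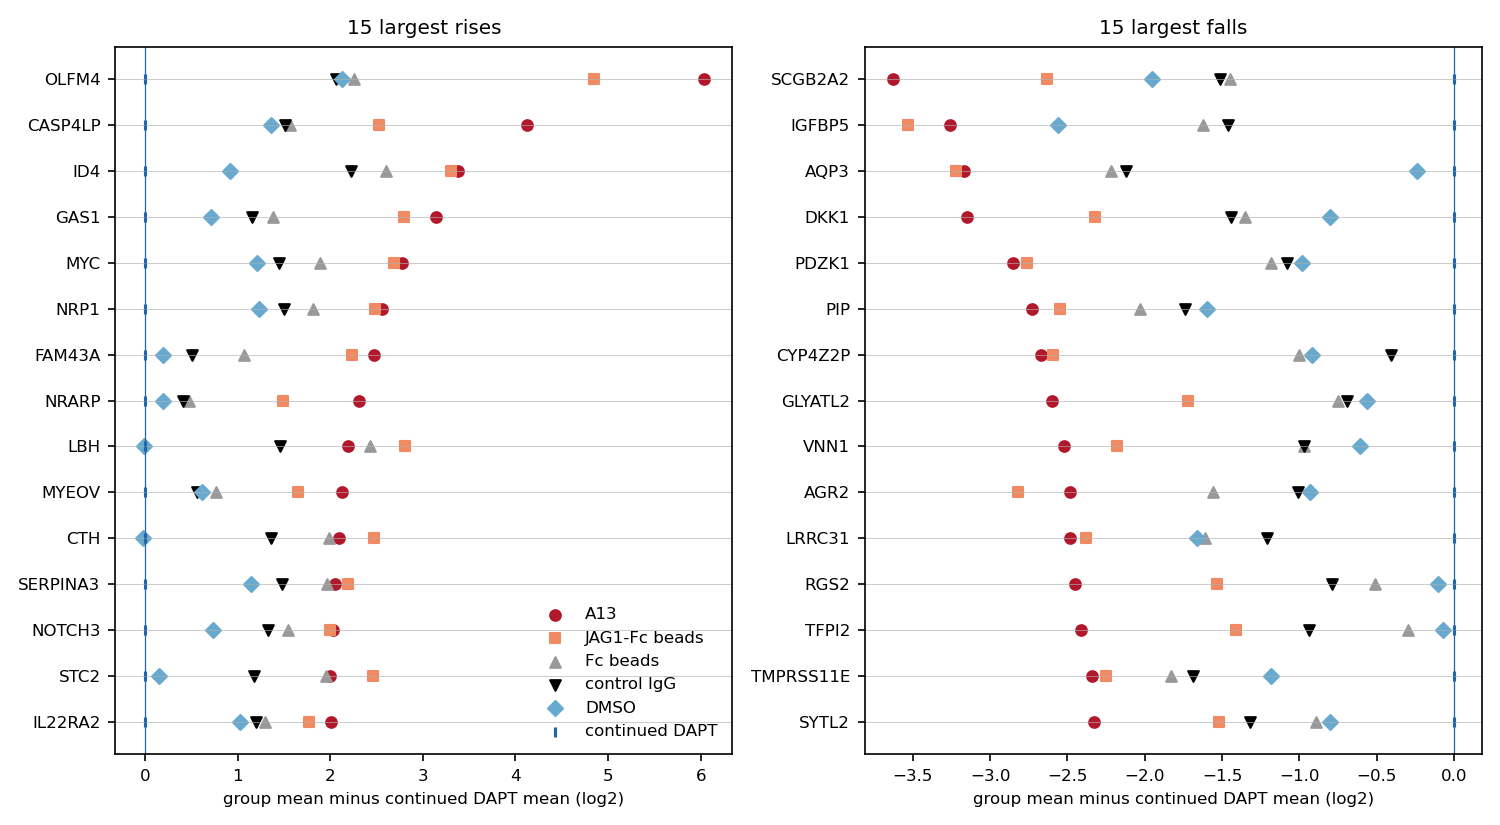
Group mean minus the continued DAPT mean (horizontal axis, log2) for the 15 largest rises (left) and 15 largest falls (right) with A13, 3 arrays a group, with 1 symbol per group and continued DAPT at 0. OLFM4 is at 6.04 with A13 and 2.06 with control IgG; CYP4Z2P is at -2.67 with A13 and -0.41 with control IgG.

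The antagonism experiment shares no array with A13 or continued DAPT, and there signalling was blocked rather than restored, so its values on the same genes are separate measurements. Of the 105 genes at least 2-fold higher with A13, 95 (90.5%) were below 0 with the blocking antibody A4 against control, beside 48.7% of all genes, with a median of -0.32. The same number, 95 (90.5%), were below 0 with DAPT against control, beside 51.3% of all genes, with a median of -0.35. Of the 188 genes at least 2-fold lower with A13, 156 (83.0%) were above 0 with A4 and 155 (82.4%) with DAPT, beside 51.3% and 48.7% of all genes. A4 and DAPT share the control arrays there. Without control 2, which stands apart, 95 and 96 of the 105 were below 0 and 149 and 144 of the 188 above 0, with A4 and DAPT in that order.

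Calls in that experiment were few. With A4, 20 genes (0.101%) passed, 9 (0.0455%) higher and 11 (0.0556%) lower, and with DAPT 70 (0.354%), 40 (0.202%) higher and 30 (0.152%) lower. Of the 30 lower with DAPT, 19 were among the genes higher with A13, which is 63.3% of the 30 and 0.798% of the 2382, and 4 were among those lower with A13. Of the 40 higher with DAPT, 37 were among those lower with A13 (92.5% of the 40, 1.15% of the 3204) and 0 among those higher. Over all genes 12.0% were higher and 16.2% lower with A13, and 54.4% of those above the median level passed. Of the 11 lower with A4, 8 were higher with A13 (72.7% of the 11, 0.336% of the 2382), and of the 9 higher with A4, 8 were lower with A13 (88.9% of the 9, 0.250% of the 3204). These counts depend on single arrays. Leaving out controls 1, 2 and 3 in turn gave 3, 96 and 6 passing genes for A4 and 11, 1198 and 35 for DAPT. Leaving out A4 array 1 or 2 gave 0 for A4, and leaving out DAPT array 1, 2 or 3 gave 16, 12 and 17 for DAPT. Without control 2, 353 of 617 genes lower with DAPT (57.2%) were higher with A13 and 40 lower. Of 581 higher with DAPT, 198 (34.1%) were lower with A13 and 8 higher.

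MYC fell by 1.15 with A4 (adjusted p = 0.0134) and by 1.34 with DAPT (adjusted p = 0.00216), and by the same amounts without control 2. OLFM4 fell by 1.29 with A4 and 1.33 with DAPT, and by 1.49 and 1.54 without control 2. NOTCH3 fell by 0.81 with A4 and 0.63 with DAPT, and HES1 by 0.65 and 0.50. IGFBP5 rose by 1.59 with A4 and 1.17 with DAPT, and by 1.35 and 0.93 without control 2, while RGS2 rose by 1.02 and 0.98. These genes went against their direction with A13 in both arms. NRARP, at -0.31 with A4 (adjusted p = 0.342) and -0.24 with DAPT (adjusted p = 0.286), did not pass. Nor did the large falls SCGB2A2 (0.08 with DAPT, adjusted p = 0.742), AQP3 (-0.20) and DKK1 (0.40).

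Of the 30 genes lower with DAPT, 11 were not higher with A13, and of the 40 higher, 3 were not lower (CLDN10, LOC102724965 and TMEM150A), all named here after their values were seen. Of the 11, CGA, a hormone subunit gene (-0.95), ID1 (-0.67), IGFL1 (-0.43) and the caveolar gene CAV1 (-0.30) were lower with A13 as well. The other 7, which did not pass with A13, were ALPP, CYP1B1, ENOX1, EPHB6, OLFML3, SERPINB3 and SERPINB4. OLFML3 fell by 1.33 with A4 and 1.25 with DAPT, and did not pass between A13 and continued DAPT (0.03, adjusted p = 0.853). CAV1, ENOX1 and OLFML3 were also the exceptions among the 11 genes lower with A4, and the chemokine CCL20 rose with A4 and did not pass with A13 (-0.19).

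**Figure D5:**
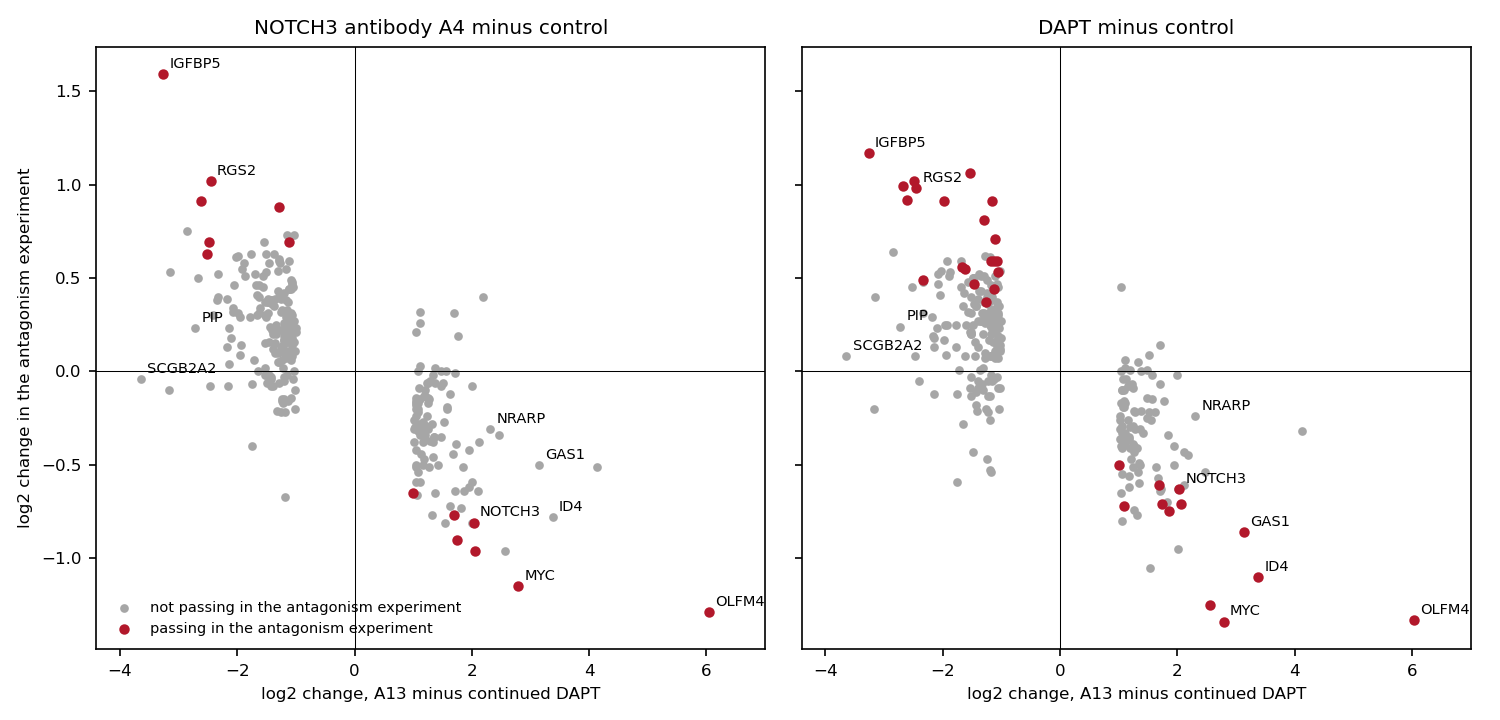
Log2 change in the antagonism experiment (vertical axis, A4 minus control on the left, DAPT minus control on the right) against the change with A13 minus continued DAPT (horizontal axis) for the 293 genes changed at least 2-fold with A13, 3 arrays a group except A4 with 2. Red points passed in the antagonism experiment; most rises with A13 lie below 0 (95 of 105 in each panel) and most falls above 0 (156 of 188 with A4, 155 of 188 with DAPT).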

How the data were processed

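RNA of MDA-MB-468 cells was measured on Affymetrix HG-U133 Plus 2.0 arrays. The values the authors deposited are 1 linear intensity per probe set and array, from 7.12 to 32597. Per the submitters' processing notes the tools were RMA and R 2.10, whose roles are not given in the sources used here. RMA makes array distributions alike, so a shift of most transcripts in 1 direction would be reduced. There are no detection calls. The deposited intensities were converted to log2.

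Of 54675 probe sets, 41097 carried 1 gene symbol, 1801 several and 11777 none, the last including 62 controls. For 41043 the gene ID matched the RefSeq table of GRCh38.p14, used for names, with 0 symbols changed. Each gene was read from the brightest of its single-gene probe sets, by the mean over every array, giving 19775 genes, of which 10523 had more than 1. No low-intensity filter was used, and 0 columns belonged to other samples. Some list members are not analysed here, and counts are over measured members.

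All 18 agonism arrays entered 1 limma fit (lmFit, contrasts.fit, eBayes) with 12 residual degrees of freedom, and the 8 antagonism arrays another with 5. Every adjusted p is from limma with Benjamini-Hochberg over all genes. The median SE was 0.081, and precision is limited by the number of arrays. The labels give no replicate numbers or batches, so arrays are numbered as listed.

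Named genes were the 15 largest rises and 15 largest falls with non-overlapping arrays, all canonical Notch targets and all receptors, ligands and fringe enzymes, the 6 passing members with the largest changes in each other list, described members that did not pass, the 6 largest step differences in each direction, 8 genes with opposed steps, and the 10 largest changes in each direction that also passed with DAPT in the antagonism experiment. Members and lists were chosen with earlier results of these data known. The fit was tested on simulated data. Alternatives covered the probe sets, normalization, offset, filter, prior, groups fitted and arrays left out. Versions were R 4.3.3, limma 3.58.1, Python 3.11.15, pandas 2.3.3, numpy 2.4.6 and matplotlib 3.10.9.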

Additional observations from a re-analysis of the deposited data

How the results depend on the processing

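The A13 against DAPT count stayed between 3861 and 5927 over the alternatives run, 4727 to 5106 with 1 array left out. A13 against DMSO stayed between 4419 and 6573. The antibody step fell to 1862 without _x_at and _s_at probe sets (2116 to 2611 with 1 array left out). The washout step fell to 1141 with only the compared groups in the fit and 1203 without those probe sets (1054 to 1793 with 1 array left out). The step difference was 203 without those probe sets, 623 among genes above the median level and 600 with a trended, robust prior (150 to 340 with 1 array left out). In the antagonism experiment DAPT gave 18 genes with only the compared groups, 169 with repeated quantile normalization, 41 without those probe sets, 270 above the median level, 124 with an offset of 50 and 306 with the trended, robust prior (11 to 1198 with 1 array left out). A4 gave 0, 53, 107, 38 and 144 for the compared groups, quantile, median level, offset and prior settings (0 to 96 with 1 array left out), with 1836 genes at an unadjusted p under 0.05. The share higher, 57.1% for DAPT and 45.0% for A4, was 68.8% and 47.1% for DAPT without DAPT 1 and 3, and for A4 32.7% above the median level, 29.9% with the prior, 0.0% without control 1 and 25% without control 2.

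Of 231 named genes 214 passed, and 178 of these kept call and direction under every alternative in which they were tested. Not every gene was tested in every setting. Only 197 of the 231 were tested among genes above the median level. Genes with only _x_at or _s_at probe sets were not tested without those types. Without _x_at and _s_at probe sets 8 changed sign and did not pass there (limma adjusted p from 0.216 to 0.943). They were AKR1C2 (0.10), CENPF (-0.19), CXCL2 (-0.13), HES1 (-0.16), MGA (-0.02), MYCN (-0.01), PLXNB2 (0.04) and PPAT (-0.16). In the same setting 13 others lost their call and kept their sign. With the mean of probe sets 13 lost their call. The cause of these losses was not tested. Among genes above the median level the passing members moved by over 1.5 times in 4 lists, to 3 for the EGFR family, 4 for the aryl hydrocarbon receptor, 5 for serpins and 1 for endothelial markers. Fewer members were tested there (5 in place of 12, 6 of 11, 6 of 20 and 2 of 7). For the direction of the 2-fold genes, leaving out antagonism arrays one at a time was added after seeing the data. It gave 92 to 97 of the 105 rises below 0 with DAPT and 88 to 95 with A4, and 144 to 166 of the 188 falls above 0 with DAPT and 149 to 163 with A4. No paired analysis was possible because the labels carry no replicate numbers.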
